A study of Rattus norvegicus with 8 samples.

Results

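Atp2a2 (ENSRNOG00000001285), Ryr2 (ENSRNOG00000017060) and Cacna1c (ENSRNOG00000007090) were followed as 3 genes of cardiomyocyte calcium cycling, out of 21549 Ensembl gene IDs measured. They were chosen by gene ID for their function, 1 pump and 2 channels, with earlier results of these data known. The names come with that choice, because the deposited tables give IDs alone. All 3 passed the filter on low counts, as did 14214 genes in all. Each of the 3 fell in the hearts of rats kept in chronic hypoxia relative to normoxia. On a scale that corrects for library composition, Cacna1c fell to 0.605 of its normoxic level, Ryr2 to 0.691 and Atp2a2 to 0.816. At an edgeR adjusted p under 0.05 all 3 were lower, as were 15.3% of all tested genes. Atp2a2 lay at that threshold (edgeR adjusted p = 0.0486) and passed it in 1 of 8 fits with 1 library left out. The 3 also have long gene models, and when the trend of expression with gene-model length was removed the fall of Cacna1c remained past the threshold, while the changes of Ryr2 and Atp2a2 did not pass.

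In a heart muscle cell, each action potential opens L-type calcium channels in the surface membrane, whose pore is the protein of Cacna1c. The entering calcium opens ryanodine receptors in the sarcoplasmic reticulum, the internal calcium store, and the cardiac form is the protein of Ryr2. The released calcium drives contraction. Relaxation follows as SERCA2, the calcium pump encoded by Atp2a2, returns calcium to the store, together with export from the cell by other transporters.

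RNA was sequenced from heart tissue of 8 Sprague Dawley rats aged 3 months, 4 under chronic hypoxia and 4 under normoxia, with 1 library for each rat. Sprague Dawley is an outbred laboratory strain. The oxygen level, the duration of exposure, the sex of the rats and the part of the heart are not stated in the sources used here. The libraries held 26229304 to 32160710 counts. Hypoxia libraries 1 and 2 stood apart, with 17480 and 17485 genes detected, against 17914 and 18008 in hypoxia libraries 3 and 4 and 18016 to 18125 in normoxia, so the changes are also given without either pair. Counting error was small for these genes, at most 0.249% of the value for Atp2a2, 0.751% for Ryr2 and 2.43% for Cacna1c in any library, so the spread between rats sets the precision. The RefSeq gene table used here holds no Ensembl IDs, so 0 of the 21549 IDs could be matched to a symbol through it. Lists of other calcium-handling genes and of markers for cardiomyocytes and other cell types were therefore not tested. In RNA from whole tissue, fewer cardiomyocytes and less RNA per cardiomyocyte cannot be told apart.

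The promoters of the 3 genes are shown because the genes moved in one direction. The windows run from 250 bases before to 50 bases after a RefSeq start site in the rat assembly GRCr8, on the strand of the gene, and capitals mark the core of the hypoxia response element (ACGTG or GCGTG, read on both strands), the short sequence bound by hypoxia-inducible factors.
Atp2a2: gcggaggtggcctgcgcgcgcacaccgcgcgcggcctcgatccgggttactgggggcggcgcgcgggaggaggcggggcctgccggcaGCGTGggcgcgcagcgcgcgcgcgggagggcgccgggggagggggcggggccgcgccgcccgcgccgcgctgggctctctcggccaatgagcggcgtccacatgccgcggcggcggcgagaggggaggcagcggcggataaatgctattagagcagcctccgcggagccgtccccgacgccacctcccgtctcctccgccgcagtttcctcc
Ryr2: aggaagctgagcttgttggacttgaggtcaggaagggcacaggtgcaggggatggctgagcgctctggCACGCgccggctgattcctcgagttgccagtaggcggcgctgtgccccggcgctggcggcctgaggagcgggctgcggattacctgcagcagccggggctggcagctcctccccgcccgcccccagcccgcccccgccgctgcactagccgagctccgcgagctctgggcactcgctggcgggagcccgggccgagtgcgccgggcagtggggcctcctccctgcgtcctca
Cacna1c: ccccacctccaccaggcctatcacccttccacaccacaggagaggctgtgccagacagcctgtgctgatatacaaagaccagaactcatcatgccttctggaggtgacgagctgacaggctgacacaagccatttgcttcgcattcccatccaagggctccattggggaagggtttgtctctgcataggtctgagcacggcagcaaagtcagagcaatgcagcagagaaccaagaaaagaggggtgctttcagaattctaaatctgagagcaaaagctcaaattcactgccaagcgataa

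The Atp2a2 window lies at chr12:39733269-39733568 on the plus strand, that of Ryr2 at chr17:63081277-63081576 on the plus strand, and that of Cacna1c at chr4:154051699-154051998 on the minus strand. The start used for Cacna1c, a gene with 32 RefSeq transcripts, is 184 bases inside the outermost annotated end of the gene. The Atp2a2 window held 1 match to the core, starting 162 bases before the start site. The Ryr2 window held 1 on the other strand, starting 182 bases before it, and the Cacna1c window held 0. Of 33469 rat promoter windows of the same size, 41.6% held at least 1 match, so 2 of 3 is a description and not a difference. The GC box GGGCGG, read on both strands, had 3 matches in Atp2a2, 3 in Ryr2 and 0 in Cacna1c, and was present in 33.1% of all windows. The CCAAT box had 1 match in Atp2a2, 1 on the other strand in Cacna1c and 0 in Ryr2, against 37.5% of all windows with a match. The TATA box TATAAA had 0 matches in each of the 3, and 14.2% of all windows had one. Bases G and C made up 79.0% of the Atp2a2 window, 73.0% of that of Ryr2 and 51.7% of that of Cacna1c, against a median of 51.7%. The Cacna1c window was at the median, and the other 2 were well above it. A link between base content and the change in expression was not tested, nor was which start sites these hearts used.

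Levels are given in FPKM, a unit that divides each count by the length of the gene model and the total of the library and so permits comparison between genes. Atp2a2 stood at 845.6, 793.9, 1014 and 780.4 FPKM in hypoxia libraries 1 to 4, against 1224, 1114, 1195 and 1204 FPKM in normoxia libraries 1 to 4. In FPKM, every hypoxic heart was below every normoxic heart, a separation whose share over all genes was not computed on this scale. Hypoxia library 3 came closest to the normoxic range. The group means were 858.5 ± 107 FPKM in hypoxia and 1184 ± 48.6 FPKM in normoxia (SD, n = 4 each). Its rank by FPKM among all genes was 41 to 68 in hypoxia and 35 to 40 in normoxia, and it took 0.568 ± 0.0711% of all counts in hypoxia and 0.784 ± 0.0321% in normoxia (SD, n = 4 each).

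Ryr2, the release channel, stood at 41.1, 49.9, 58.9 and 45.8 FPKM in hypoxia libraries 1 to 4, against 81.5, 86.8, 70.6 and 80.7 FPKM in normoxia libraries 1 to 4. The groups did not overlap, with library 3 the highest in hypoxia and library 3 the lowest in normoxia. As for Atp2a2, the share of all genes so separated in FPKM was not computed. The means were 48.9 ± 7.54 FPKM in hypoxia and 79.9 ± 6.73 FPKM in normoxia (SD, n = 4 each). Its rank by FPKM was 830 to 1331 in hypoxia and 543 to 709 in normoxia.

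Cacna1c, the pore of the L-type channel, stood at 7.29, 10.3, 11.7 and 8.64 FPKM in hypoxia libraries 1 to 4, against 16.9, 17.2, 17.2 and 19.3 FPKM in normoxia libraries 1 to 4. Normoxia libraries 1 to 3 were nearly equal, library 4 was higher, and the hypoxic hearts were spread more widely below them. Here too the share of all genes with such a separation in FPKM was not computed. The means were 9.47 ± 1.91 FPKM in hypoxia and 17.7 ± 1.08 FPKM in normoxia (SD, n = 4 each). Its rank by FPKM among all genes was 4093 to 5730 in hypoxia and 2726 to 3175 in normoxia.

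**Figure D1:**
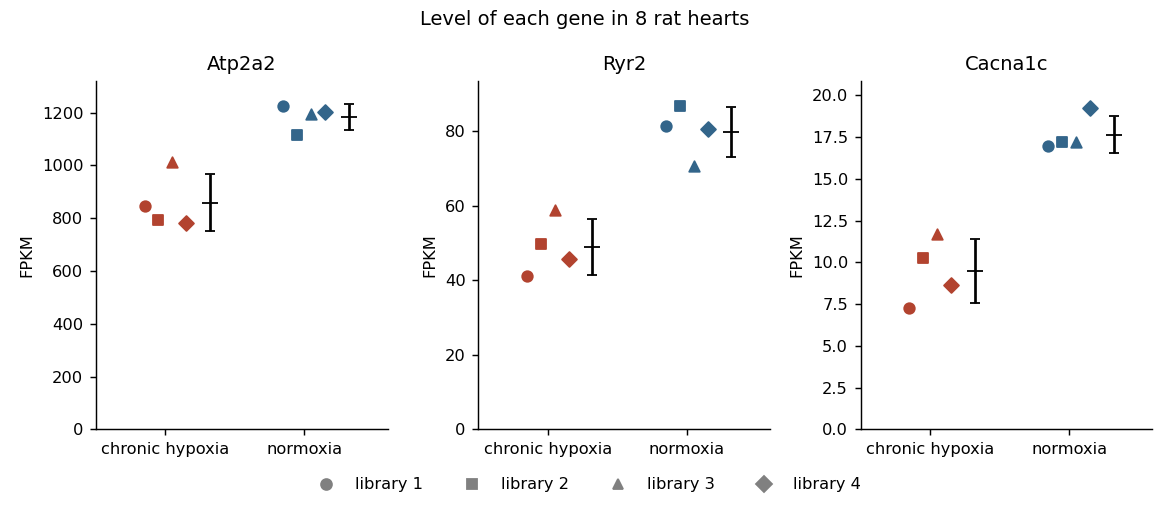
FPKM of Atp2a2, Ryr2 and Cacna1c in each of the 4 hypoxic (left) and 4 normoxic (right) hearts, with 1 symbol per library and the mean ± SD beside the points; the axes start at 0. In each gene all 4 hypoxic hearts lie below all 4 normoxic hearts, and hypoxia library 3 is the highest of its group. The share of all genes with such a separation in FPKM was not computed.

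The order of the levels was Atp2a2, then Ryr2, then Cacna1c in all 8 hearts, and the 3 ranges of FPKM did not overlap in either group. The spread between hearts was wider in hypoxia than in normoxia for each gene. The coefficient of variation of FPKM was 12.5% in hypoxia and 4.10% in normoxia for Atp2a2, 15.4% in hypoxia and 8.42% in normoxia for Ryr2, and 20.2% in hypoxia and 6.12% in normoxia for Cacna1c (n = 4 each). This is a property of the series as a whole, since on the scale of CPM (counts over library totals after composition scaling) the median tested gene varied by 16.1% in hypoxia and 8.75% in normoxia. On that CPM scale Atp2a2 varied by 8.12% in hypoxia and 5.46% in normoxia, Ryr2 by 14.3% in hypoxia and 8.38% in normoxia, and Cacna1c by 19.7% in hypoxia and 8.44% in normoxia. Within hypoxia, library 1 was the lowest for Ryr2 and Cacna1c on both scales, and library 3 the highest for each gene.

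The change between groups was tested on the counts with edgeR, with TMM scaling (trimmed mean of M values, which corrects for differences in library composition) and Benjamini-Hochberg adjustment over all 14214 genes. On the CPM scale Atp2a2 stood at 5710, 5857, 6751 and 5774 CPM in hypoxia libraries 1 to 4, against 7560, 6819, 7406 and 7755 CPM in normoxia libraries 1 to 4. The groups were apart by 68.6 CPM, between hypoxia library 3 and normoxia library 2. The log2 fold change of Atp2a2 was −0.29 (SE 0.10, 95% interval −0.52 to −0.07, edgeR adjusted p = 0.0486), lower in 4 of 4 hypoxic hearts. This call lies at the threshold. It was lost when any 1 library other than hypoxia library 3 was left out (adjusted p = 0.0598 to 0.130, log2 fold change −0.33 to −0.27), and without hypoxia library 3 it was −0.35 with an adjusted p of 0.0173.

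Ryr2 stood at 621.7, 823.4, 877.2 and 758.2 CPM in hypoxia libraries 1 to 4, against 1127, 1189, 980.0 and 1163 CPM in normoxia libraries 1 to 4. Its log2 fold change was −0.53 (SE 0.12, 95% interval −0.80 to −0.27, edgeR adjusted p = 0.00846). Cacna1c stood at 59.5, 91.4, 94.0 and 77.2 CPM in hypoxia libraries 1 to 4, against 126.5, 127.2, 128.9 and 149.9 CPM in normoxia libraries 1 to 4. Its log2 fold change was −0.73 (SE 0.14, 95% interval −1.04 to −0.41, edgeR adjusted p = 0.00413). The calls of Ryr2 and Cacna1c held in all 8 fits with 1 library left out. Without hypoxia libraries 1 and 2 the log2 fold changes were −0.25 for Atp2a2 (edgeR adjusted p = 0.1002), −0.46 for Ryr2 (adjusted p = 0.00858) and −0.64 for Cacna1c (adjusted p = 0.00146). Without hypoxia libraries 3 and 4 they were −0.36 for Atp2a2 (edgeR adjusted p = 0.0132), −0.63 for Ryr2 (adjusted p = 0.00494) and −0.82 for Cacna1c (adjusted p = 0.00345).

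All 3 genes were thus called lower, with groups that did not overlap in CPM. Over all tested genes 33.0% were called in either direction and 15.3% were called lower. In 17.1% all 4 hypoxic CPM values lay below all 4 normoxic ones, and the matching share in FPKM was not computed. Of all tested genes 5.80% had a more negative log2 fold change than Cacna1c, 10.5% than Ryr2 and 23.2% than Atp2a2. With library totals alone as the scaling, which is the scaling of FPKM, the log2 fold changes of all genes shifted by a median of −0.17, and those of the 3 genes were −0.46 for Atp2a2, −0.71 for Ryr2 and −0.90 for Cacna1c.

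Long gene models were lower in hypoxia across this series, and each of the 3 is long. Dividing count by FPKM and library total gave gene-model lengths of 6620 bp for Atp2a2, 14817 bp for Ryr2 and 8000 bp for Cacna1c. Of the tested genes 4.71% were at least as long as Atp2a2, 2.29% at least as long as Cacna1c and 0.239% (34 genes) at least as long as Ryr2. Each gene was therefore set beside the 200 tested genes nearest to it in length. This is a description, without a test.

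**Figure D2:**
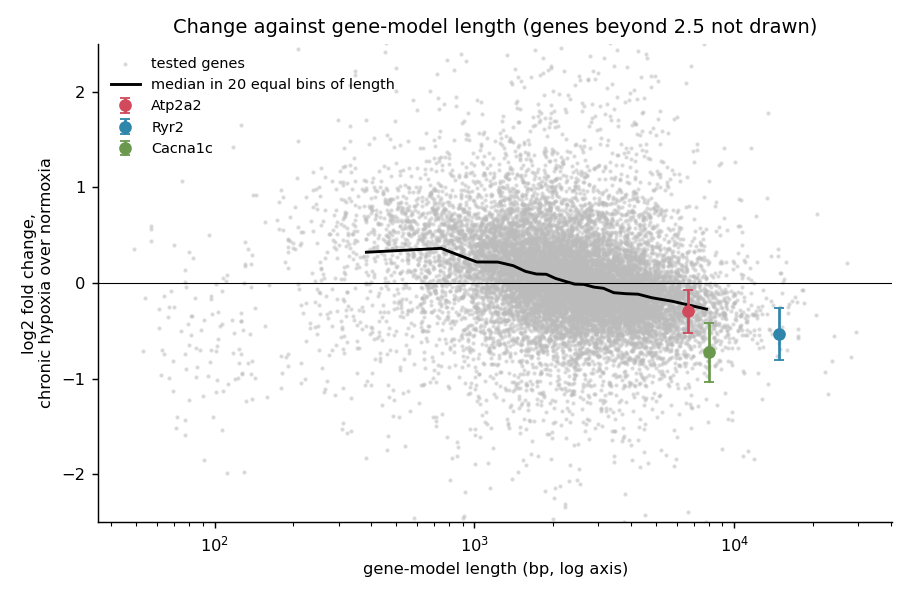
Log2 fold change (chronic hypoxia over normoxia, edgeR with TMM scaling) against gene-model length on a log axis, with 1 grey point per tested gene. The line joins the medians of 20 bins of length that hold equal numbers of genes, each drawn at its median length. The 3 genes are coloured points with 95% intervals. The line falls with length, and Atp2a2 at −0.29 lies near it. Cacna1c at −0.73 and Ryr2 at −0.53 both lie beyond the end of the line, at greater lengths.

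Atp2a2 changed about as much as genes of its length. The 200 nearest genes, of 6340 to 6911 bp, had a median log2 fold change of −0.28 (quartiles −0.48 and −0.07), 165 were below 0, and 39.5% were called lower and 3.00% higher. Of these genes 95 had a more negative change than Atp2a2. None was as abundant, with a highest mean of 727 CPM. Among the 50 genes nearest in length and abundance together, the median was −0.16 and 18 had a more negative change. They spanned 2176 to 14817 bp because few genes are so abundant, and Ryr2 was the longest of them. That set was loosely matched, at 405 to 8125 CPM with a median of 942 CPM. Atp2a2 had means of 6023 CPM in hypoxia and 7385 CPM in normoxia.

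Ryr2 lay below the middle of the 200 genes nearest to it in length, but within their range. Only 33 tested genes are longer, so most of the 200 are shorter than Ryr2. Its 200 nearest genes spanned 9114 to 23724 bp, with a median log2 fold change of −0.31 (quartiles −0.51 and −0.09), and 47.5% were called lower and 6.0% higher. A more negative change was found in 48 of them. Among the 50 nearest in length and abundance the median was −0.42, and 19 had a more negative change than Ryr2. That set was loosely matched, at 6113 to 29464 bp and 133 to 1668 CPM with a median of 272 CPM.

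Cacna1c lay near the low end of genes of its length. Its 200 nearest genes, of 7376 to 8680 bp, had a median log2 fold change of −0.29 (quartiles −0.48 and −0.08), and 43.0% were called lower and 4.00% higher. Only 16 of the 200 had a more negative change. Among the 50 nearest in length and abundance, of 6713 to 9526 bp and 70.6 to 153 CPM, the median was −0.30 and 2 had a more negative change. The 3 sets of 200 shared 0 genes with one another.

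The same question was put as a test by removing from each library its trend of expression on length before the edgeR fit. The log2 fold change of Atp2a2 was then −0.07 (SE 0.09, 95% interval −0.26 to 0.13, edgeR adjusted p = 0.605). That of Ryr2 was −0.18 (SE 0.09, 95% interval −0.38 to 0.03, edgeR adjusted p = 0.176). That of Cacna1c was −0.47 (SE 0.11, 95% interval −0.72 to −0.21, edgeR adjusted p = 0.0156). In that fit 1 of the 3 genes was called lower, against 12.1% of all tested genes. With a trend on length and mean abundance together, 1 of 3 was again called lower, against 12.5% of all tested genes. The values were −0.06 for Atp2a2 (adjusted p = 0.648), −0.11 for Ryr2 (adjusted p = 0.375) and −0.45 for Cacna1c (adjusted p = 0.0178). Ryr2 lies near the long end, with 33 longer tested genes, so its local trend rests mostly on shorter genes. Removing a trend also removes any response that long genes share, and no RNA integrity values were used here, so a technical difference between the groups and a shared response of long genes cannot be told apart.

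Library by library, the log2 CPM of each gene, taken relative to its mean over the 8 libraries, was set against the median of the same quantity in the 200 genes nearest in length. For Atp2a2 the difference was 0.01, −0.10, 0.07 and −0.01 in hypoxia libraries 1 to 4, against 0.07, −0.13, 0.02 and 0.06 in normoxia libraries 1 to 4. The groups overlapped throughout. For Ryr2, whose 200 genes are mostly shorter than it, the difference was −0.29, 0.01, −0.07 and −0.10 in hypoxia libraries 1 to 4. In normoxia libraries 1 to 4 it was 0.17, 0.17, −0.07 and 0.17. Normoxia library 3 lay among the hypoxic hearts, and the other 3 normoxic hearts lay above all 4 of them. For Cacna1c it was −0.57, −0.03, −0.07 and −0.25 in hypoxia libraries 1 to 4, against 0.19, 0.14, 0.18 and 0.40 in normoxia libraries 1 to 4. All 4 hypoxic hearts lay below all 4 normoxic hearts, with library 1 lowest by a wide margin and libraries 2 and 3 nearest to normoxia. The share of all tested genes that stay apart after this subtraction was not computed. Without the subtraction it was 17.1% on the CPM scale. The mean difference of Cacna1c from genes of its length was −0.23 ± 0.25 in hypoxia and 0.23 ± 0.11 in normoxia (log2, SD, n = 4 each).

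**Figure D3:**
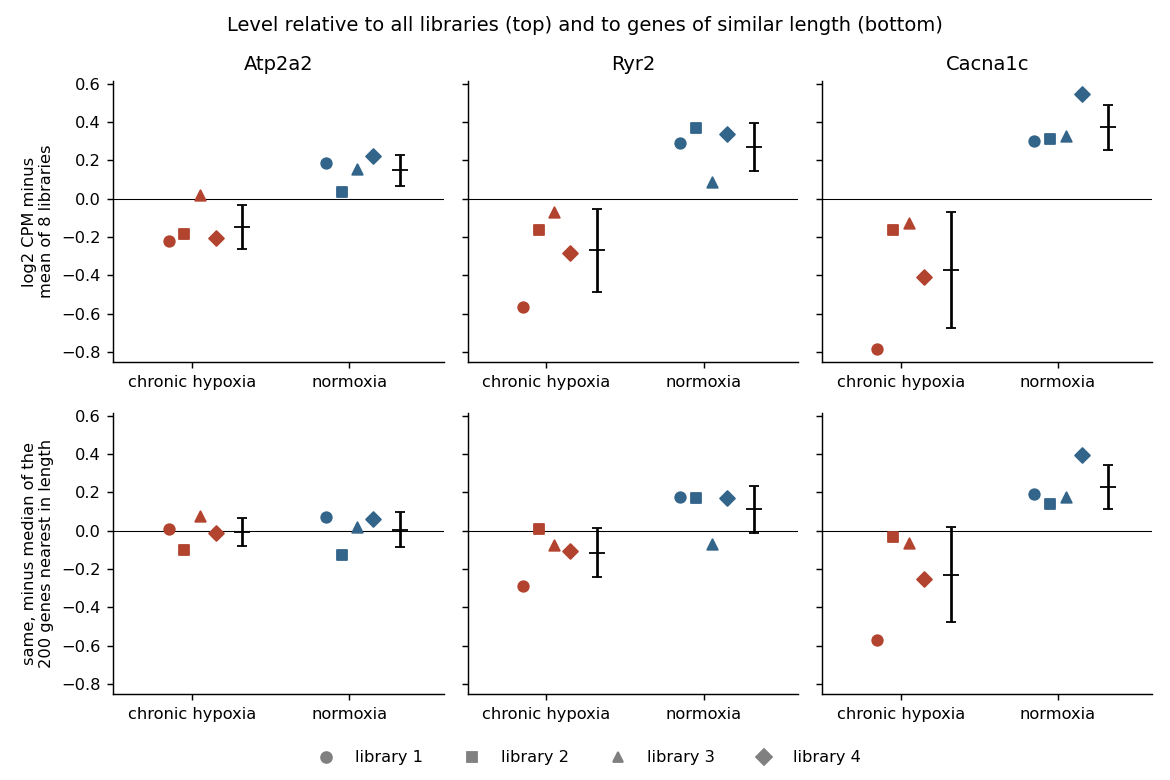
Log2 CPM of each gene in each heart relative to the mean of the 8 libraries (top) and the same after subtracting the median of the 200 genes nearest in length (bottom), hypoxic hearts left and normoxic hearts right, with mean ± SD. In the bottom panels the groups overlap for Atp2a2 and Ryr2 and stay apart for Cacna1c, at −0.57 to −0.03 in hypoxia and 0.14 to 0.40 in normoxia. How many of all tested genes stay apart in this way was not computed.

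Ratios between the genes within a heart do not depend on how libraries are scaled. The ratio of Atp2a2 to Ryr2, pump to release channel, was 20.6, 15.9, 17.2 and 17.04 in hypoxia libraries 1 to 4, against 15.02, 12.8, 16.9 and 14.9 in normoxia libraries 1 to 4 (FPKM over FPKM). The ranges overlapped, and the means of 17.7 ± 2.00 in hypoxia and 14.9 ± 1.67 in normoxia (SD, n = 4 each) gave p = 0.0571 in a two-sided exact permutation test (0.0857 after adjustment over 3 ratios). The ratio of Atp2a2 to Cacna1c, pump to entry channel, was 116, 77.4, 86.8 and 90.4 in hypoxia libraries 1 to 4, against 72.2, 64.8, 69.4 and 62.5 in normoxia libraries 1 to 4. All 4 hypoxic ratios were above all 4 normoxic ones. The means were 92.7 ± 16.5 in hypoxia and 67.3 ± 4.40 in normoxia (SD, n = 4 each), a log2 difference of 0.45. The exact permutation test gave p = 0.0286, the lowest that 4 against 4 allows, and 0.0857 after adjustment.

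The ratio of Ryr2 to Cacna1c was 5.64, 4.86, 5.04 and 5.30 in hypoxia libraries 1 to 4, against 4.81, 5.05, 4.11 and 4.19 in normoxia libraries 1 to 4. The means of 5.21 ± 0.339 in hypoxia and 4.54 ± 0.462 in normoxia (SD, n = 4 each) gave an exact permutation p of 0.0857, and the same after adjustment. After adjustment none of the 3 ratios passed. A single ratio at the lowest exact p of 0.0286 stays at 0.0857 after adjustment, so it could not have passed alone. A difference in the size of the fall between the genes was thus neither shown nor excluded by these tests. With the length trend removed first, the ratios of Atp2a2 and of Ryr2 to Cacna1c had log2 differences of 0.41 and 0.30, each with an adjusted exact p of 0.0429, and that of Atp2a2 to Ryr2 had 0.11 (adjusted exact p = 0.314). With the trend on length and abundance together they were 0.39 and 0.34, each with an adjusted exact p of 0.0857, and 0.05 (adjusted exact p = 0.686).

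**Figure D4:**
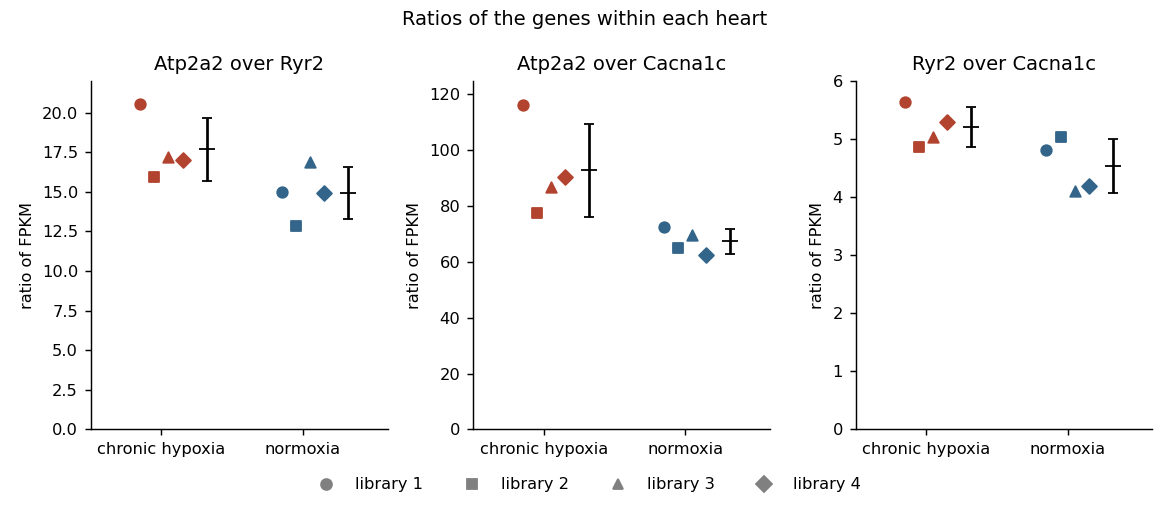
Ratios of FPKM between the genes within each heart, hypoxic hearts left and normoxic hearts right, with mean ± SD and axes from 0. All 4 hypoxic hearts lie above all 4 normoxic hearts for Atp2a2 over Cacna1c; for the other 2 ratios the groups overlap.

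Genes whose pattern over the 8 libraries was most like each of the 3 were found by the root mean square distance between profiles of log2 CPM, each centred on its own mean. The nearest gene to Atp2a2 was ENSRNOG00000010214, at a distance of 0.0343, with 7.40 ± 0.513 CPM in hypoxia and 9.04 ± 0.613 CPM in normoxia (SD, n = 4 each) and a log2 fold change of −0.29 (edgeR adjusted p = 0.0447). The nearest to Ryr2 was ENSRNOG00000036960, at 0.0572, with 204 ± 31.7 CPM in hypoxia and 295 ± 28.2 CPM in normoxia (SD, n = 4 each) and a log2 fold change of −0.53 (edgeR adjusted p = 0.00968). The nearest to Cacna1c was at 0.0802. Among one another the closest pair was Ryr2 and Cacna1c, at 0.147, where Ryr2 ranked 39 among the genes nearest to Cacna1c and Cacna1c ranked 289 among those nearest to Ryr2. Atp2a2 lay at 0.185 from Ryr2 and 0.276 from Cacna1c. It ranked 837 among the genes nearest to Ryr2 and 1191 among those nearest to Cacna1c, and in the list of Atp2a2 itself Ryr2 ranked 2861 and Cacna1c 6201. As the measure compares sizes of change as well as shape, genes with a fall of another size rank low in it. The nearest genes thus share the fold change of the gene they were matched to by selection, and their values are no separate result.

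**Figure D5:**
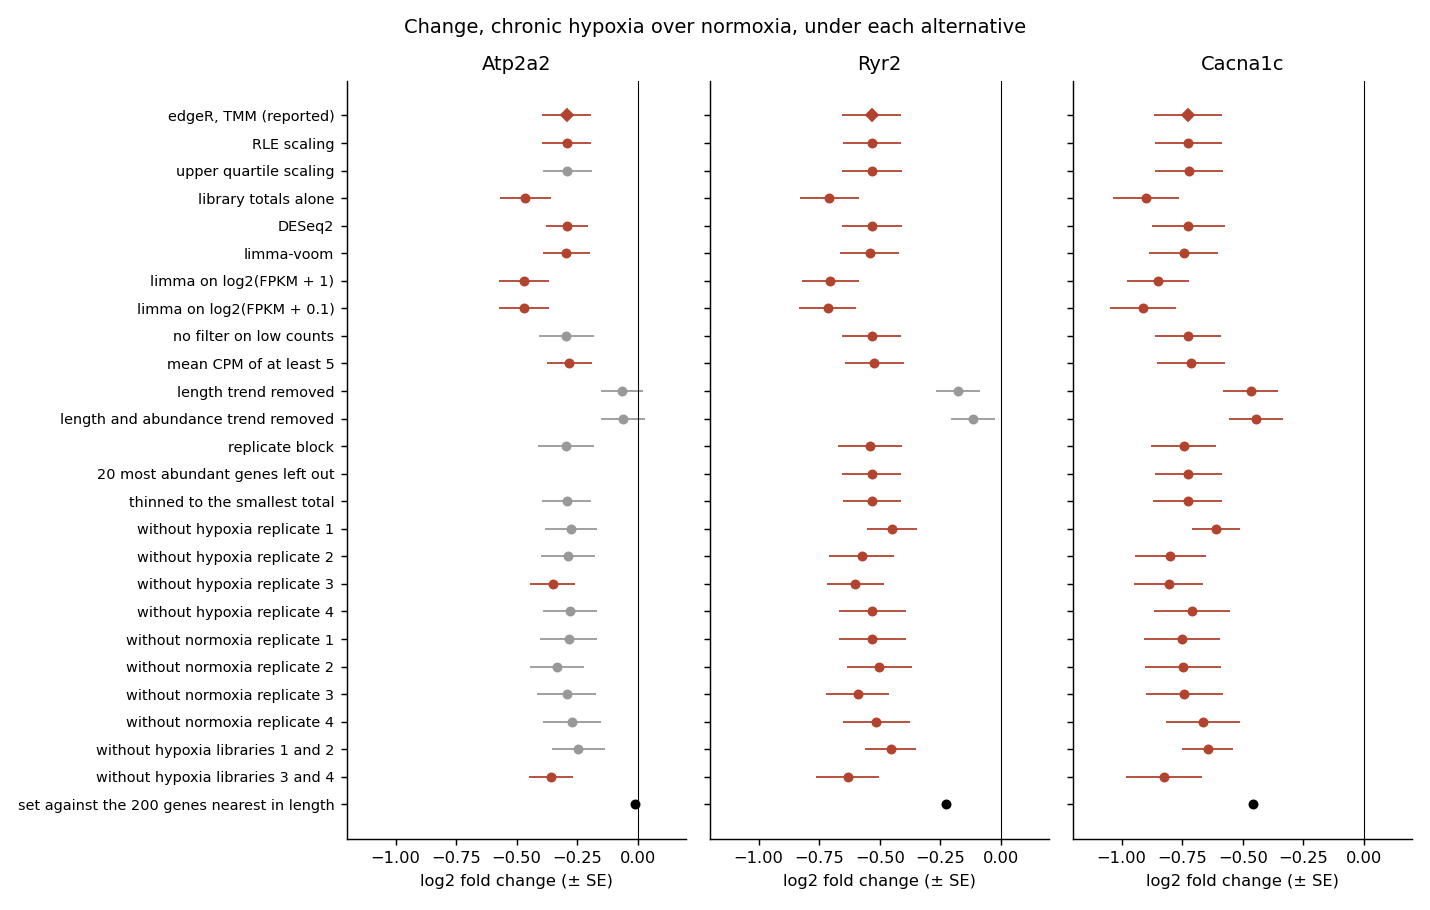
Log2 fold change (chronic hypoxia over normoxia) of each gene under each alternative, with SE as bars; red marks an adjusted p under 0.05, grey an adjusted p at or above it, and black a value with no test. Every value is below 0; Cacna1c is past the threshold in each tested alternative, while Ryr2 is not with a length trend removed and Atp2a2 falls on either side of the threshold. Atp2a2 has no value with the 20 most abundant genes left out, since it is one of them.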

How the data were processed

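The authors deposited, for each library, a table of raw read counts per Ensembl gene and a table of FPKM values. Bowtie2 2.2.3, HISAT2 2.1.0, HTSeq 0.6.0 and the genome build rn6 are listed, per the submitters' processing notes. Their roles, the annotation and the strand setting are not stated in the sources used here, so reads of overlapping or antisense genes cannot be separated.

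Gene-model length was recovered from the ratio of count to FPKM and the library total, as the median over libraries rounded to a whole number. The values of single libraries lay within a relative tolerance of 0.001 of that length in 100% of cases. Counts were fitted with edgeR 4.0.16 in R 4.3.3 (filterByExpr with a minimum count of 10, TMM scaling, quasi-likelihood test with group as the only term, Benjamini-Hochberg adjustment), and an adjusted p under 0.05 counted as called. Log2 CPM used a prior count of 2. The SE came from the test statistic. Length trends were lowess or loess curves (span 0.3) of each library's deviation, entered as offsets. Ratios were compared by exact permutation over 70 assignments. DESeq2 1.42.0 and limma 3.58.1 were alternatives. The fits were tested on simulated data. Python 3.11.15, pandas 2.3.3, numpy 2.4.6 and matplotlib 3.10.9 were used for values and figures.

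The members and lists were chosen with earlier results of these data known. Genes named are the 3 members and, for profile likeness, the nearest gene to each, with at most 2 falling IDs printed because IDs had no symbols. The labels' protocols describe separate rats. Every pair of libraries within a group differed by more than sampling noise (chi-square per degree of freedom 9.26 to 97.9), so none was treated as a library deposited again. The rat promoter sequences are RefSeq's, on GRCr8, and were matched by symbol for 3 of 3 genes. No RNA quality values, genome sequence or cell type markers were used here.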

Additional observations from a re-analysis of the deposited data

Results flagged for a closer look

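In 24 groups of 4 values, 4 had a sample far from the other 3 by Dixon's test, and chance marks about 5% of groups. Several of these groups hold related measures of the same gene. Atp2a2 stood at 6751 CPM in hypoxia library 3, against 5710 to 5857 CPM in the other hypoxic hearts, and without that library its log2 fold change was −0.35 (edgeR adjusted p = 0.0173). Cacna1c stood at 19.3 FPKM, or 149.9 CPM, in normoxia library 4, against 16.9 to 17.2 FPKM and 126.5 to 128.9 CPM in the other normoxic hearts, and without that library its log2 fold change was −0.66 (edgeR adjusted p = 0.0165). Ryr2 relative to the 200 genes nearest in length stood at −0.0717 (log2) in normoxia library 3, against 0.17 in each of the other 3 normoxic hearts. Without that library the log2 fold change of Ryr2 itself, not set against those genes, was −0.59 (edgeR adjusted p = 0.0147).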

How the results depend on the processing

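Every alternative that gave a value left each of the 3 genes lower in hypoxia; Atp2a2 had none with the 20 most abundant genes left out. Calls over all genes numbered 3315 to 5982, against 4693 in the reported fit, but library totals alone gave 1426 higher and 3870 lower in place of 2516 and 2177. Cacna1c kept its call in all 24 tested alternatives, at −0.91 to −0.45, with adjusted p from 1.70e-05 to 0.0178. Ryr2 kept its call in 22 and lost it with the length trend removed (−0.18, adjusted p = 0.176) and with the length and abundance trend removed (−0.11, adjusted p = 0.375). Atp2a2 kept its call in 9 of 23 (adjusted p 0.00347 to 0.648 over all). It lost it with the length trend removed (−0.0661, adjusted p = 0.605), the length and abundance trend removed (−0.0606, adjusted p = 0.648), upper quartile scaling (−0.29, adjusted p = 0.0503), counts thinned to the smallest total (−0.29, adjusted p = 0.0505), no filter on low counts (−0.29, adjusted p = 0.0897) and without hypoxia libraries 1 and 2 (−0.25, adjusted p = 0.1002), and kept it without hypoxia libraries 3 and 4 (−0.36, adjusted p = 0.0132). Leaving out 1 library gave −0.35 to −0.27 for Atp2a2, −0.60 to −0.45 for Ryr2 and −0.81 to −0.61 for Cacna1c. Beyond the construction of each fit, the cause was not tested.

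Set against the 200 genes nearest in length, an alternative chosen after seeing the data and without a test, the changes were −0.0135 for Atp2a2, −0.23 for Ryr2 and −0.46 for Cacna1c. The medians of the 200 genes became −0.45, −0.49 and −0.47 (for Atp2a2, Ryr2 and Cacna1c) with library totals alone. For Atp2a2 the median was −0.16 over the loosely matched 50 genes nearest in length and abundance. The ratios of Atp2a2 and Ryr2 to Cacna1c, which share a denominator, passed with the length trend removed (0.41 and 0.30). Leaving out 1 library gave log2 ratio differences of 0.17 to 0.31 for Atp2a2 to Ryr2 and 0.33 to 0.53 for Atp2a2 to Cacna1c. For Ryr2 to Cacna1c they were 0.16 to 0.26. No adjusted p in these fits was under 0.05, and a single ratio could not have passed alone. With the replicate number as a replicate block, 3841 genes were called, and Atp2a2 (−0.30, adjusted p = 0.0966) lost its call while Ryr2 (adjusted p = 0.0254) and Cacna1c (adjusted p = 0.0104) kept theirs. The numbers did not pair the rats: same-number correlations of deviations were −0.0847 to 0.0187, and 0 of 8 libraries correlated best with their own number. No GC correction was run, as no genome sequence was used here.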
